A study of Mus musculus with 3 samples.

Results

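Cardiomyocyte nuclei are described here from the chromatin accessibility arm of a single-nucleus multiome study of the mouse heart, in the vehicle and the sunitinib library. A called nucleus was a barcode with at least 1000 unique fragments on chromosomes 1 to 19 and X and fragment ends at least 4 times as dense at start sites as in their flanks. It was a cardiomyocyte nucleus when at least 5 of its fragments lay over the gene body or the 2 kb upstream of 10 heart muscle genes, and when their share of its fragments was at least 3 times the share among all vehicle fragments. This rule gave 506 cardiomyocyte nuclei of 6554 called nuclei, 214 of 2696 in the vehicle library and 292 of 3858 in the sunitinib library. Over all 3 libraries 6566 nuclei were called.

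The libraries were made from snap-frozen hearts of wild-type mice given vehicle, sunitinib (a cancer drug that blocks several receptor tyrosine kinases and can harm the heart) or sunitinib together with Yoda1 (a small molecule that opens PIEZO1, a stretch-gated channel). The titles carry 3 months, without saying whether this is an age or a duration, and strain, sex, dose and the number of hearts per library were not given in the sources used here. Each group had 1 library. The spread between animals is therefore unknown, no test between groups was possible, and every interval below covers counting error only. A difference between the libraries therefore cannot be told apart from a difference between hearts or preparations. The sunitinib plus Yoda1 library held 12 called nuclei, 2 of them by the cardiomyocyte rule, and entered no comparison. The RNA arm was not analysed here.

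Adult cardiomyocytes are large, long-lived muscle cells that fill most of the volume of the ventricle but are a minority of its nuclei. Their sarcomeres pull actin thin filaments past myosin thick filaments, titin runs along the thick filament as a spring, and calcium released through the ryanodine receptor RYR2 starts each beat. They burn fatty acids in abundant mitochondria, a programme driven by the coactivator PGC-1alpha with the ERR and PPAR nuclear receptors, and MEF2, GATA4, NKX2-5 and TBX factors hold their gene expression in place. In the assay used here the transposase Tn5 cuts open chromatin, so fragments over a gene report how accessible its regulatory DNA is, not how much RNA it makes.

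Promoters that were open mainly in these nuclei are shown first, by a motif of the muscle transcription factor MEF2 that they held more often than other open promoters. A promoter here is the RefSeq interval of 300 bases, from 250 before to 50 after a gene's start (GRCm38.p6). Of the promoters with at least 10 fragments from cardiomyocyte nuclei, 277 were at least 3-fold more accessible there than in the other called nuclei of the same libraries, and 7262 were not. Below are the stretches around the motif in 5 of these promoters, written 5′ to 3′ on the strand of the gene with the MEF2 motif in capitals. They belong to titin, to the glycogen-targeting phosphatase subunit gene Ppp1r3a, to the actin-binding intercalated disc gene Xirp2, to the Z-disc gene Synpo2l and to myosin-binding protein C.
Ttn: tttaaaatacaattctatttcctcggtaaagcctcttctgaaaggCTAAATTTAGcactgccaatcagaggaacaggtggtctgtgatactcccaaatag
Ppp1r3a: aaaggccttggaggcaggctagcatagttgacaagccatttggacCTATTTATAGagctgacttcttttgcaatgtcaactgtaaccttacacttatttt
Xirp2: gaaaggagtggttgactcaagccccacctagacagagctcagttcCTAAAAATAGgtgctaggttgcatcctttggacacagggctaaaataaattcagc
Synpo2l: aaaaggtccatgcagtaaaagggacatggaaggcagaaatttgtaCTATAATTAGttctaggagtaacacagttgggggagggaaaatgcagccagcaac
Mybpc3: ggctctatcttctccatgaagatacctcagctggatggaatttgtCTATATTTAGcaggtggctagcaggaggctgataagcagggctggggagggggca

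These stretches lie at chr2:76982659-76982758, minus strand (Ttn), chr6:14755320-14755419, minus strand (Ppp1r3a), chr2:67445883-67445982, plus strand (Xirp2), chr14:20668409-20668508, minus strand (Synpo2l) and chr2:91118009-91118108, plus strand (Mybpc3), all upstream of the start and outside annotated exons. The motif began 166 bases before the start in Ttn, 100 in Ppp1r3a, 74 in Xirp2, 109 in Synpo2l and 90 in Mybpc3. The Ttn promoter held 10 vehicle and 15 sunitinib fragments of cardiomyocyte nuclei, 43.4 times the level of other nuclei. Ttn and Mybpc3 are markers whose upstream bases helped to choose the nuclei, so their enrichment is in part by construction. The Xirp2 promoter held 7 and 9 fragments (32.4 times) and the Ppp1r3a promoter 9 and 9 (31.5 times). Synpo2l had 5 and 8 (18.1 times) and Mybpc3 6 and 5 (19.6 times). All 5 were accessible in both libraries, with 5 to 15 fragments in each.

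Of the 277 enriched promoters 17 held the MEF2 motif, or 6.14% (exact Clopper-Pearson interval 3.62 to 9.64). The share was 0.344% (0.223 to 0.508) among the 7262 open promoters that were not enriched and 0.561% among all 32619 RefSeq promoters. Motifs were searched on both strands. In 12 of the 17 the letters of the motif also contain TATA, the core of the TATA box, and in 3 the motif began 40 to 20 bases before the start, where a TATA box sits. The E-box CAGCTG, bound by muscle helix-loop-helix factors among others, was in 29.2% of enriched promoters (24.0 to 35.0) against 13.1% of the other open ones and 16.4% of all. The ERR motif AAGGTCA was in 6.50% (3.90 to 10.1), 2.38% and 4.71%, and the TEAD motif GGAATG in 17.3% (13.1 to 22.3), 9.93% and 14.6%. For both motifs the interval held the share of all promoters. The GATA motif AGATAA was in 10.1% of enriched and 3.79% of other open promoters, but in 11.2% of all promoters. The ETS motif CCGGAAG went the other way, with 2.53% of enriched promoters, 22.8% of other open promoters and 8.92% of all. Enriched promoters were chosen on these fragments, so the shares describe them, and a motif match shows letters and not binding.

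**Figure D1:**
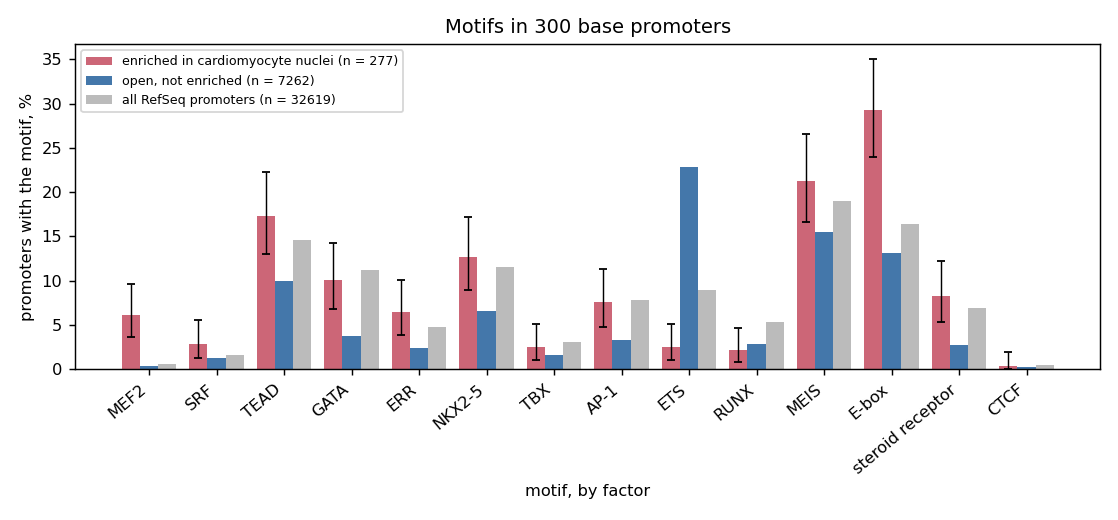
Share of promoters (y axis, percent) that hold each of 14 motifs (x axis) among 277 promoters enriched in cardiomyocyte nuclei, 7262 open but not enriched and all 32619. Bars on the enriched promoters are exact 95% intervals. MEF2 stands at 6.14% against 0.344% of the other open promoters, and ETS at 2.53% against 22.8%.

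The rule admitted nuclei with a median of 11.5 marker fragments in the vehicle library and 10 in the sunitinib library. The marker share of a cardiomyocyte nucleus ran from 0.208% over a median of 0.530% to 1.68% under vehicle, and from 0.205% over 0.478% to 1.73% under sunitinib. The threshold was 0.205%, 3 times the 0.0683% of all vehicle fragments. The nuclei just inside it stood at 0.208, 0.215 and 0.216% (vehicle) and at 0.205, 0.207 and 0.208% (sunitinib), and those just outside at 0.198, 0.196 and 0.187% and at 0.205, 0.204 and 0.202%. No gap separated members from the rest. The minimum of 5 fragments kept out 26 vehicle and 66 sunitinib nuclei whose share was high enough, and 16 and 38 members held exactly 5, so the rule is strict on shallow nuclei.

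**Figure D2:**
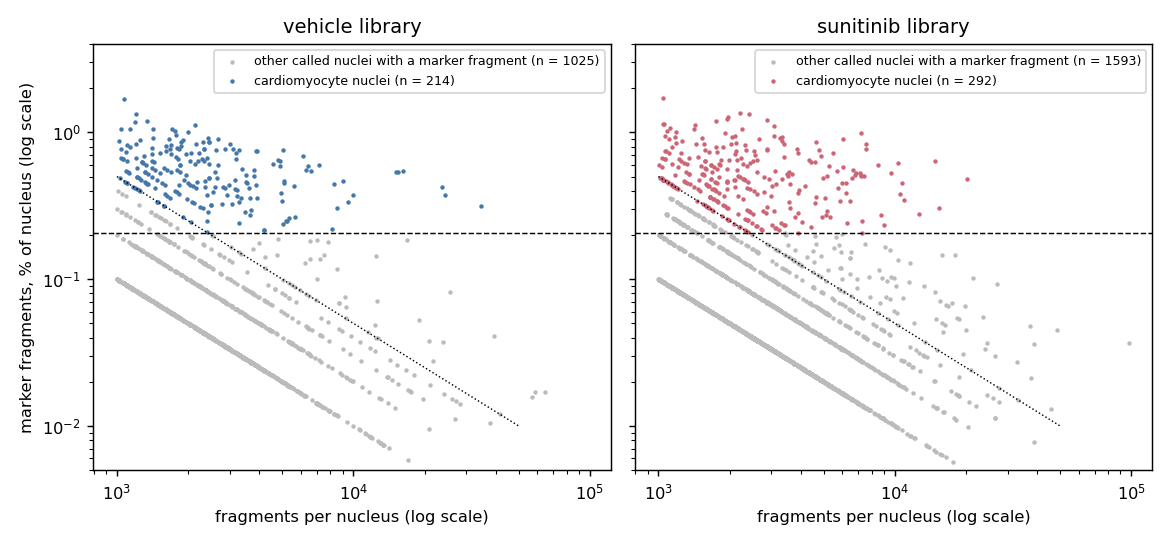
Marker fragments as a percent of each nucleus (y axis, log scale) against its fragments (x axis, log scale) in the vehicle and the sunitinib library. The dashed line is the share threshold of 0.205% and the dotted line the minimum of 5 marker fragments. The 214 and 292 cardiomyocyte nuclei lie above both lines and adjoin the other called nuclei without a gap.

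Cardiomyocyte nuclei took 7.94% of called nuclei under vehicle (6.94 to 9.02) and 7.57% under sunitinib (6.75 to 8.45). These intervals overlap. Among nuclei with at least 3000 fragments, where the fragment minimum of the rule matters less, the shares were 7.68% (5.94 to 9.74) and 6.31% (5.09 to 7.71). Leaving out nuclei that met the same rule for T or B lymphocyte genes gave 8.17% and 8.44%. That exclusion turned the order of the libraries around. The T lymphoid rule was met by 37 vehicle and 371 sunitinib nuclei.

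Both libraries sampled cardiomyocyte nuclei to a like depth. The 214 vehicle nuclei held 665110 fragments, with 1024 in the lowest, 2073 in the median and 34542 in the highest nucleus. The 292 sunitinib nuclei held 869442, with 1008, 2125 and 20112. A few deep nuclei weighed heavily, since the top 5% of nuclei carried 26.3% of fragments under vehicle and 18.8% under sunitinib. Nuclei over 10000 fragments numbered 6 and 8, and no doublet caller was run. The median enrichment at start sites was 21.55 and 21.05, below the 25.9 and 26.0 of the other nuclei. No barcode was a cardiomyocyte nucleus in both libraries, although 22 were called in both.

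The 10 markers chose the nuclei, so their levels are a description. Myh6, the main myosin heavy chain of the adult mouse heart, had 409 vehicle and 536 sunitinib fragments, or 615 and 616 fragments per 1000000 fragments of these nuclei (FPM). Its level was 28.6 times that of other nuclei. Ttn (titin) had 1131 and 1331 fragments (1700 and 1531 FPM) and Ryr2 had 1073 and 1554 (1613 and 1787 FPM). They gave 33.8% and 32.1% of marker fragments under vehicle and 30.3% and 35.4% under sunitinib. Per kilobase of gene the order was another: Myh6 led with 22.8 FPM per kb in both libraries, Myl2 had 11.4 and 15.4, Actc1 10.4 and 6.82, and Ryr2 was lowest with 2.90 and 3.22. Ryr2 was seen in 96.3% and 95.9% of nuclei, Ttn in 95.3% and 91.4%, and Myh6 in 72.4% and 67.1%.

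The other marker genes held fewer fragments. Tnnt2, cardiac troponin T, had 103 and 150 fragments, and Mybpc3, myosin-binding protein C, had 94 and 131. Actn2, the alpha-actinin of the Z-disc, had 298 and 344. Actc1, cardiac actin, had 57 and 49, Pln, the brake on the calcium pump, 41 and 44, and Tnni3, cardiac troponin I, 26 and 54. Tnni3 and Pln also stood least above other nuclei, at 3.88 and 4.61 times, against 13.1 to 28.6 times for the other 8.

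**Figure D3:**
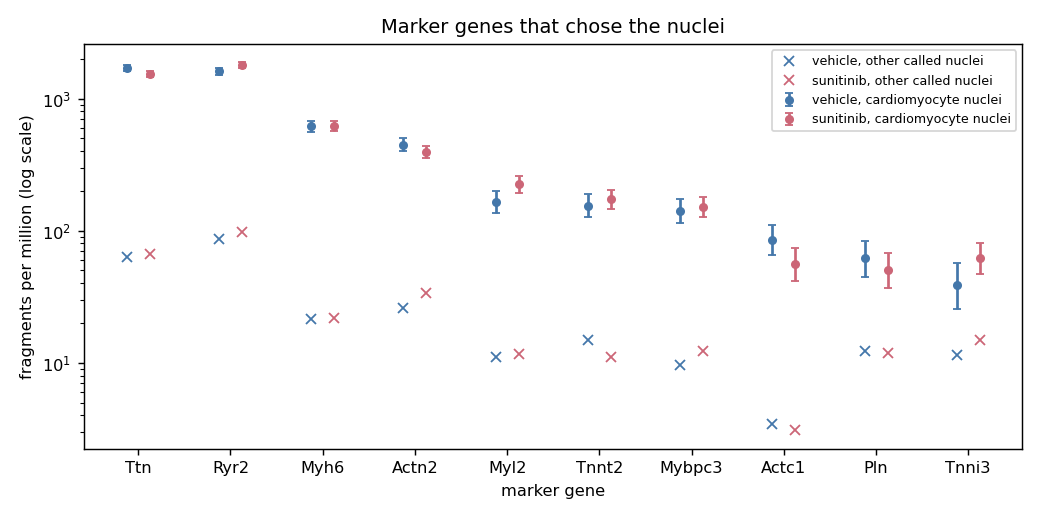
FPM (fragments per 1000000, y axis, log scale) over each marker gene (x axis) in cardiomyocyte nuclei (points with exact Poisson 95% intervals) and in the other called nuclei (crosses). Every marker is higher in cardiomyocyte nuclei, from 3.88 times for Tnni3 to 28.6 times for Myh6. The markers chose the nuclei, so the gap to other nuclei is by construction.

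The summed markers stood at 5025 FPM under vehicle and 5047 under sunitinib, a log2 ratio of sunitinib over vehicle of 0.01 (conditional exact interval -0.06 to 0.07). Each marker was also read in nuclei chosen with the other 9. In those nuclei 5 markers were higher and 5 lower under sunitinib, with a median log2 ratio of -0.0024 and a range from -0.60 to 0.45. Titin stood at -0.19 (-0.31 to -0.06) and Ryr2 at 0.15 (0.03 to 0.28), opposite in direction and small. Myl2, the ventricular regulatory light chain, stood at 0.37 (0.01 to 0.73) and Actc1 at -0.60 (-1.19 to -0.02). The rule itself favours a like summed marker level in both libraries.

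Genes outside the marker list, here those with at least 100 fragments, describe the same cell type. The highest levels relative to other nuclei were at Cmtm5, beside the myosin locus (23.7 times), Myh7, the slow myosin heavy chain (18.3 times), Adprhl1 (15.4 times), the thin filament gene Lmod2 (15.4 times) and the Z-disc gene Csrp3 (14.1 times). Next came Myoz2 (12.9 times), the mitochondrial creatine kinase Ckmt2 (11.9 times), Ppp1r3a (11.6 times), the muscle ubiquitin ligase Trim63 (11.6 times) and Ppargc1a, which encodes PGC-1alpha (11.6 times). These levels are given as a description.

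Markers of 11 other cell classes were read in the same way, and in each class with nuclei of its own they were below the level of those nuclei. The nuclei of each class were chosen on these same markers, so that gap is by construction. Endocardial markers were the highest, at 639 and 560 FPM in cardiomyocyte nuclei, close to the 668 and 541 of the other called nuclei and below the 3109 and 2986 of nuclei chosen as endocardial. Glial markers (149 and 141 FPM) and adipocyte markers (230 and 240) were above the other nuclei (116 and 110, and 196 and 192). Of the adipocyte marker fragments Plin4 held 71 of 153 and 81 of 209, at 9.90 times the level of other nuclei. The rest of the adipocyte markers lay between 0.286 (Fabp4) and 1.39 times (Cfd). The 10 endothelial markers summed to 275 and 336 FPM in cardiomyocyte nuclei, against 2730 and 2751 in nuclei chosen as endothelial, and all 10 were detected in both libraries. T lymphoid markers summed to 150 and 201 FPM, against 279 and 580 in the other nuclei, with 1 of 10 markers at 0 under vehicle. B lymphoid markers summed to 174 and 245. The log2 ratio of sunitinib over vehicle was 0.29 (0.02 to 0.56) for endothelial, 0.42 (0.06 to 0.79) for T lymphoid and 0.49 (0.16 to 0.83) for B lymphoid markers, so all 3 were higher under sunitinib. With 10 marker fragments and 5 times the share, T lymphoid markers stood at -0.054, and without the deepest 5% of nuclei endothelial markers stood at 0.05. Fibroblast markers were at 227 and 251 FPM and skeletal muscle markers at 137 and 96.6, beside 114 and 114 in the other nuclei. Myeloid markers summed to 498 and 444, above the 339 and 336 of the other nuclei, and of these Cx3cr1 held 284 and 319 fragments. Its annotated gene spans the muscle gene Xirp1, and the other 9 myeloid markers came to 70.7 and 77.1 FPM. The cardiomyocyte nuclei that also met another class rule numbered 8 of 214 and 16 of 292. The part of other cells in the gene ratios below was not tested beyond leaving these nuclei out.

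Sunitinib against vehicle was then read gene by gene, as the log2 ratio of FPM over the gene body and 2 kb upstream, with 0.5 added to each count. Of 846 genes with at least 200 fragments, 15 were at least 1.5-fold lower (1.77%) and 1 at least 1.5-fold higher (0.118%). The median ratio was -0.09, and 567 genes (67.0%) lay below 0 and 279 (33.0%) above. Scaled to that median gene the split was 6 lower and 7 higher. With a minimum of 100 fragments 71 of 2858 genes were lower (2.48%) and 60 higher (2.10%). Without the nuclei that also met another class rule, 7 of 711 genes were lower and 5 higher. The lean in the number of genes past 1.5-fold was therefore smaller or absent in these other readings. Leaving those nuclei out also left fewer genes measured, and the cause of the change was not tested. Without those nuclei the median ratio still lay below 0, at -0.11.

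Flnc (chromosome 6, 29433256 to 29461883, mm10), the gene of filamin C, which ties actin to the Z-disc, had the lowest ratio. It held 154 vehicle and 95 sunitinib fragments, a log2 ratio of -1.08 (-1.47 to -0.71). After each nucleus was thinned to 1000 fragments, 17.3% of vehicle and 8.56% of sunitinib nuclei had a Flnc fragment, against 2.98% and 2.02% of other nuclei. Other nuclei stood at -0.58, and the difference between cardiomyocyte and other nuclei was -0.51 (-0.95 to -0.07). Here and below, the other nuclei pool all other cell types, and their make-up differed between the libraries. Among called nuclei 37 vehicle and 371 sunitinib ones met the T lymphoid rule. The part of this make-up in the ratios of other nuclei was not tested. Of the 62 windows of 500 bp along the gene 46 were lower under sunitinib. The window with most fragments held 11 and 10, so differences of a few fragments set each sign. The share of lower windows over all genes is not given here.

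Ppargc1a (chromosome 5, 51454250 to 51567726) held 270 and 181 fragments, or 406 and 208 FPM, a log2 ratio of -0.96 (-1.24 to -0.69). The fragments came from 111 of 214 and 109 of 292 nuclei, and 26 of the vehicle fragments came from 1 nucleus. Without the deepest 5% of nuclei the ratio was -0.88, and in thinned nuclei it was -0.61. A fragment was found in 28.0% and 19.2% of thinned nuclei, against 2.74% and 1.99% of other nuclei. Other nuclei stood at -0.34, a difference of -0.62 (-0.99 to -0.25). The most accessible window, 14.0 kb from the start, held 8 and 9 fragments, and 136 of 232 windows were lower under sunitinib. With so few fragments per window this count is also given without a share over all genes.

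Chrm2, the muscarinic receptor through which the vagus nerve slows the heart (chromosome 6), held 122 and 94 fragments (-0.76, -1.17 to -0.36). Thinned nuclei with a fragment were 17.3% and 8.22%, and other nuclei differed by -0.12. Pam, an enzyme that amidates peptides and is abundant in atrial granules (chromosome 1), held 226 and 177 fragments (-0.74, -1.03 to -0.45), of which 26 vehicle fragments lay in 1 nucleus. Without the deepest 5% Chrm2 stood at -0.59 and Pam at -0.61. The ratio of Chrm2 in cardiomyocyte nuclei was below that in other nuclei by -0.64 (-1.12 to -0.16) and that of Pam by -0.52 (-0.82 to -0.21).

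Wnk1 and Picalm were not enriched in cardiomyocyte nuclei (0.990 and 1.06 times the level of other nuclei) but differed from the other nuclei in their ratio. Wnk1, a kinase that controls chloride transporters, held 118 and 82 fragments (-0.91, -1.34 to -0.49), with 0.11 in other nuclei. Its window at the start held 25 vehicle and 9 sunitinib fragments. Picalm, a clathrin adaptor, held 135 and 104 (-0.76, -1.15 to -0.38), with 0.03 in other nuclei. The other genes among the 10 lowest were the actin regulator Enah (-0.68), Arhgap22 (-0.67), Rprd1b (-0.64) and Fgf12, a modulator of sodium channels (-0.62).

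The highest ratios were smaller. Pard3b, a cell polarity gene (chromosome 1), held 113 and 222 fragments, with 0.58 (0.25 to 0.93) in cardiomyocyte and -0.18 in other nuclei. Mecom (0.50), Ccdc85c (0.52) and Galnt17 (0.44) were also above the other nuclei, by 0.73, 0.75 and 0.73. Mecom, which endothelial cells express, was at 0.494 times the level of other nuclei. The endothelial markers above were also higher under sunitinib, and their part in its ratio was not tested. The rest were Sipa1l1 (0.53), Ccser1 (0.52), Zfp704 (0.45), the proteoglycan Gpc5 (0.45), Myl2 (0.44) and Oxct1, the enzyme that lets the heart use ketone bodies (0.43). The 1 gene past 1.5-fold higher was Elmo1 (99 and 203 fragments, 0.65), named after its value was seen. It had the opposite direction at its start site, with 14 and 4 fragments.

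**Figure D4:**
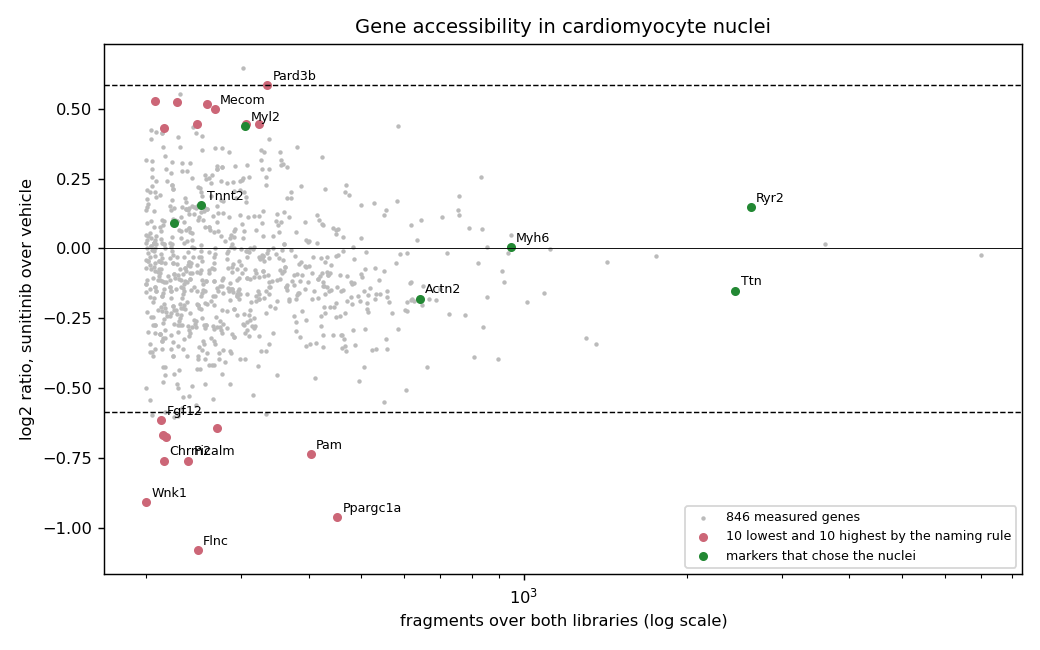
Log2 ratio of sunitinib over vehicle (y axis) against fragments over both libraries (x axis, log scale) for 846 genes in cardiomyocyte nuclei. Dashed lines mark 1.5-fold. Flnc at -1.08 and Ppargc1a at -0.96 are the lowest. Markers with at least 200 fragments, in green, lie between -0.18 (Actn2) and 0.44 (Myl2). The markers Actc1 (-0.60), Pln (-0.29) and Tnni3 (0.65) are below that minimum and not shown.

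Gene lists were read by their members with at least 100 fragments, beside a median of -0.05 and 58.1% of genes below 0 over all 2858 genes of that depth, and by the fragments summed over all their genes. The atrial list was the lowest of 26. All 5 measured genes were lower under sunitinib, 3 of them past 1.5-fold (2.48% of all genes of that depth), with a median of -0.71. Over its 15 genes the list summed to 662 vehicle and 571 sunitinib fragments, or 995 and 657 FPM, a log2 ratio of -0.60 (-0.76 to -0.44) against -0.17 (-0.24 to -0.11) in other nuclei. Without Pam it was -0.53 (-0.73 to -0.33), an alternative added after the data were seen. The measured genes beside Pam were Myl4, the atrial essential light chain (60 and 45 fragments, -0.80, -1.39 to -0.22), Tbx5, a T-box factor of the atria and conduction system (88 and 70, -0.71, -1.19 to -0.25), the channel gene Kcnj3 (-0.24) and the chaperone Clu (-0.16).

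The other 10 atrial genes were below the minimum. Nr2f2, the factor that holds atrial identity, had 29 and 13 fragments (-1.51, -2.61 to -0.55), Kcnj5, partner of Kcnj3 in the acetylcholine-gated potassium channel, 40 and 29 (-0.84), and Dkk3 46 and 38 (-0.66). The genes most typical of atrial muscle had few fragments, with 5 and 7 fragments over Myl7, 10 and 6 over Nppa, the natriuretic peptide ANP, 2 and 0 over Sln and 2 and 4 over Bmp10. Several genes that carry the list were also open in other nuclei, since the level in cardiomyocyte nuclei was only 1.81 times theirs at Pam, 1.17 times at Myl4 and 0.626 times at Nr2f2. In nuclei thinned to 1000 fragments 61.2% under vehicle (54.3 to 67.8) and 46.6% under sunitinib (40.7 to 52.5) had a fragment over an atrial gene, and before thinning 77.6% and 74.0%. Other nuclei had 34.0% and 29.0% when thinned. How much atrial tissue entered each library was not given in the sources used here.

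The ventricular list lay near 0. Its summed ratio was -0.06 (-0.21 to 0.09), its median -0.02 with 3 of 5 measured genes lower, and 63.6% and 61.6% of thinned nuclei had a fragment. Myl2 (0.44) and Myl3, the ventricular essential light chain (41 and 75 fragments, 0.48), were higher under sunitinib, while Lbh (-0.43) and Cacnb2 (-0.47) were lower. Without Myl2, which is also a marker, the list stood at -0.18 (-0.34 to -0.02).

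Among genes of the electrical system, potassium and sodium channel genes summed to 1281 and 1377 fragments, a ratio of -0.28 (-0.39 to -0.17) against -0.03 in other nuclei, with 7 of 9 measured genes lower and a median of -0.28. The transient outward potassium channel genes Kcnd3 (179 and 155 fragments, -0.59, -0.91 to -0.28) and Kcnd2 (131 and 116, -0.56, -0.94 to -0.19) were among them. The inward rectifier Kcnj12 stood at -0.57, while Kcnq1, of the slow delayed rectifier, stood at 0.12. Conduction system genes stood at -0.10 (-0.26 to 0.07), with the T-type calcium channel Cacna1g at -0.65 (-1.23 to -0.08). In thinned nuclei the list stood at -0.34, and 62.1% of vehicle and 50.0% of sunitinib nuclei had a fragment, against 43.6% and 44.2% of other nuclei.

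Calcium cycling genes stood at -0.09 (-0.15 to -0.03), with 11 of 12 measured genes lower and a median of -0.17. Other nuclei had the same summed ratio (-0.09), and with 10 marker fragments and 5 times the share the list stood at 0.0019. Ryr2 was the exception at 0.15, and without it and Pln the list stood at -0.18 (-0.25 to -0.11). The L-type channel subunit Cacnb2 held 255 and 240 fragments (-0.47, -0.73 to -0.21), while its pore subunit Cacna1c held 768 and 984 (-0.03, -0.17 to 0.11). The sodium-calcium exchanger Slc8a1 stood at -0.43 (-0.65 to -0.20), the junctophilin Jph2 at -0.31 (-0.59 to -0.03) and the calcium pump Atp2a2 at -0.18. Adrenergic and muscarinic genes stood at -0.14 (-0.23 to -0.06), where the anchoring protein gene Akap6 had 315 and 290 fragments (-0.51) with 41 of the vehicle fragments in 1 nucleus.

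Among the contractile lists, those of the filaments hold markers that chose the nuclei. Thick filament and titin genes stood at -0.06 (-0.13 to 0.01) with 5 of 11 lower, and thin filament genes at -0.03 (-0.17 to 0.11) with 3 of 7 lower. Z-disc and costamere genes stood at -0.17 (-0.25 to -0.10), with 10 of 12 lower, beside -0.21 in other nuclei. Intercalated disc genes stood at -0.10 (-0.21 to 0.002), with 8 of 10 lower. There Nrap, a scaffold of myofibril assembly, had -0.31 (-0.58 to -0.03) and Ctnna3, the heart alpha-catenin, 0.12.

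Natriuretic, fetal and stress genes stood at -0.33 (-0.46 to -0.19), nearly the -0.29 of other nuclei, with 4 of 5 measured genes lower and a median of -0.31. Myh7 held 158 and 166 fragments (-0.32, -0.64 to 0.01). Ankrd1, a stretch-responsive gene of the sarcomere and nucleus, was below the minimum with 47 and 18 fragments (-1.75, -2.64 to -0.96), and is given after its value was seen. Its thinned share was 8.88% and 2.74% of nuclei, and its ratio lay below that of other nuclei by -1.36 (-2.38 to -0.33). YAP and TEAD genes, which respond to stretch, stood at -0.20 (-0.33 to -0.08) beside -0.16 in other nuclei. Cardiac transcription factor genes stood at -0.17 (-0.27 to -0.08) beside -0.25, with 11 of 13 lower, among them Gata4 (163 and 159 fragments, -0.42, -0.75 to -0.10).

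The list of PGC-1, nuclear receptor and mitochondrial regulators stood at -0.22 (-0.32 to -0.12) beside -0.02 in other nuclei, with 7 of 11 measured genes lower. Without Ppargc1a it was -0.10 (-0.21 to 0.01). Esrrg, the ERR-gamma receptor, stood at -0.19 (-0.42 to 0.05), Ppargc1b at -0.15, Ppara at -0.14 and Rxra at -0.42 (-0.78 to -0.06). By summed fragments, lists of genes that PGC-1alpha is known to act on lay closer to 0. Fatty acid oxidation stood at -0.06 (-0.18 to 0.07), oxidative phosphorylation at -0.05 (-0.23 to 0.14) and glucose uptake and glycolysis at -0.002 (-0.12 to 0.12). By measured genes fatty acid oxidation had 6 of 8 lower and a median of -0.27, below the -0.14 of the PGC-1 list. Glucose uptake and glycolysis had 4 of 9 lower and a median of 0.02, and oxidative phosphorylation had 1 measured gene of 18. Within fatty acid oxidation Cd36, the fatty acid importer, was at -0.37 (-0.72 to -0.02), Fabp3, its cytosolic carrier, at 0.59 (0.09 to 1.13, 49 and 97 fragments) and Lpl, the lipoprotein lipase, at 0.39 (-0.03 to 0.83).

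Channels gated by stretch and the kinases that sunitinib blocks were thinly covered. Stretch-gated channel genes stood at 0.17 (-0.02 to 0.37) beside -0.05 in other nuclei, and all 4 measured genes were above 0, with a median of 0.40, where 41.9% of all genes of that depth were above 0. The list was at 540 and 610 FPM in cardiomyocyte nuclei. In other nuclei it took a larger share, 5464 of 7558435 vehicle and 8408 of 12025101 sunitinib fragments. The part of other cells in these ratios was not tested. Piezo1, the target of Yoda1, held 38 and 71 fragments (0.51, -0.07 to 1.12), Trpm7 35 and 71 (0.62, 0.03 to 1.26), Piezo2 39 and 63 (0.30, -0.29 to 0.92) and Pkd1 45 and 62 (0.07). Sunitinib target genes summed to 180 and 266 fragments (0.18, -0.10 to 0.46) and belong mostly to other cell types, with only Flt1 measured. Cell cycle genes had no measured member and stood at -0.13 (-0.35 to 0.09), against 0.16 (0.11 to 0.22) in other nuclei. Among circadian genes, whose list stood at -0.07, Dbp was at 0.82 (0.200 to 1.504, 30 and 70 fragments), and Cry2, below the minimum, at -1.06 (-1.69 to -0.46, 61 and 38).

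**Figure D5:**
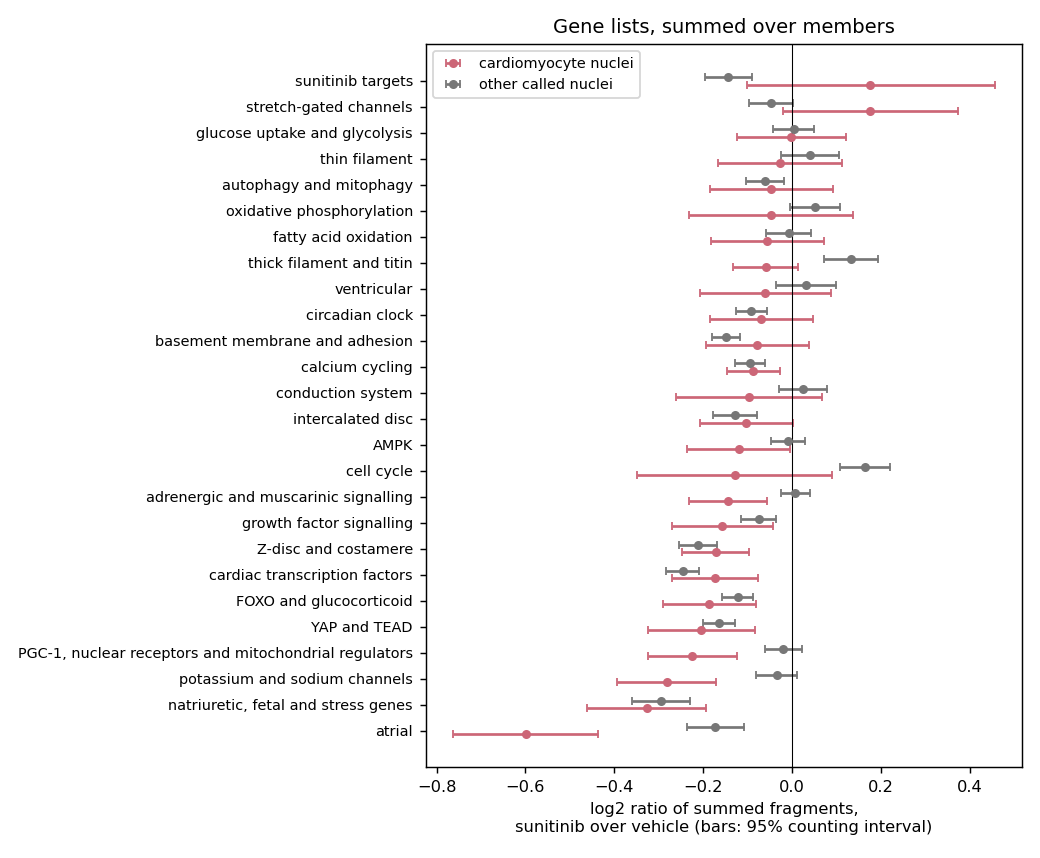
Log2 ratio of summed fragments, sunitinib over vehicle (x axis), for 26 gene lists (y axis) in cardiomyocyte nuclei and in the other called nuclei. Bars are conditional exact 95% intervals for counting error. The atrial list is lowest at -0.60 against -0.17 in other nuclei, followed by natriuretic genes (-0.33 and -0.29) and potassium and sodium channels (-0.28 and -0.03).

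Accessible DNA was also read across the genome in windows of 500 bp. Of the 10000 windows with most fragments from cardiomyocyte nuclei (at least 17 each), 1582 were at least 3-fold above the other nuclei. Most of these, 1319 or 83.4%, lay more than 1 kb from a start site, with 39.4% of enriched windows in introns, 34.7% between genes and 9.29% over exons. Of the 8418 windows that were not enriched 88.9% lay within 1 kb of a start site. Several of the windows with most fragments lay at the myosin locus on chromosome 14. The interval chr14:54940001-54940500, between Cmtm5 and the end of Myh6, held 21 vehicle and 29 sunitinib fragments (29.98 times other nuclei), and the window at the Myh6 start, chr14:54966501-54967000, held 20 and 25 (27.01 times). An intron of Cacnb2 at chr2:14834501-14835000, 10.7 kb from a start, held 21 and 21 (35.0 times). An intergenic window at chr17:45812501-45813000, 78.9 kb from the nearest start, held 18 and 23 (55.7 times).

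The enriched windows took a smaller part of the fragments under sunitinib. They summed to 16083 of the vehicle and 18192 of the sunitinib fragments, 2.42% and 2.09%, a log2 ratio of -0.21 (-0.24 to -0.18). Windows that were not enriched stood at -0.06 (-0.08 to -0.05). The ratio was -0.26 (-0.33 to -0.18) within 1 kb of start sites, -0.22 (-0.27 to -0.17) in introns, -0.20 (-0.25 to -0.15) between genes and -0.10 (-0.20 to 0.005) over exons. It was -0.17 without the deepest 5% of nuclei and -0.09 when 10 marker fragments and 5 times the share were required, a rule that keeps 4.23% and 3.58% of called nuclei. Enriched promoters with a MEF2 motif held 121 and 154 fragments (-0.04, -0.39 to 0.32) and all 277 enriched promoters stood at -0.12 (-0.21 to -0.04). The summed markers, on which the nuclei were chosen, stood at 0.01.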

How the data were processed

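The authors' fragment files came from cellranger-arc on mm10, per the file headers: release 2.0.2 for the sunitinib plus Yoda1 library and 2.0.0 for the others. The submitters' processing notes also name Signac. The deposited values are, per unique fragment and barcode, a count of read pairs, not normalized. The vehicle, sunitinib and sunitinib plus Yoda1 libraries held 18704581, 23653823 and 583792 unique fragments from 148947808, 210143978 and 209296546 read pairs. Groups came from the titles and the design text.

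Everything else was computed here (Python 3.11.15, numpy 2.4.6, pandas 2.3.3, scipy 1.17.1). Enrichment at start sites was fragment ends within 50 bp of protein-coding starts over ends at 1900 to 2000 bp, per bp. Genes came from GENCODE M21 (21728 protein-coding genes on the chromosomes used). A fragment over a gene was counted once and a fragment over 2 genes of a list once per list. Measured genes had 200 or more fragments summed over the libraries (100 within lists) and an expected 30 per library. Overlapping genes share fragments, since the assay has no strand. Ratios had 0.5 added to each count and conditional exact 95% intervals, shares had Clopper-Pearson intervals, and differences between cardiomyocyte and other nuclei had intervals from the 4 counts' log variances. Thinning drew 1000 fragments per nucleus with a fixed seed. The calculation was tested on simulated counts. These were drawn independently for each gene, without nuclei, so the test does not cover fragments that cluster in a few nuclei.

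Named genes were the 10 markers, the 10 highest and 10 lowest measured autosomal protein-coding genes whose interval excluded 0 and whose sign held within 1 kb of the start site, and in each list the 2 members with most fragments and the lowest and highest member. In each list only members with at least 200 fragments were eligible. Elmo1 and Ankrd1 lie outside the rule and are marked where they stand. Cmtm5, Adprhl1, Lmod2, Csrp3, Myoz2, Ckmt2, Ppp1r3a and Trim63 lie outside it too. Their levels were given because they stood highest relative to other nuclei. Other list genes given with a ratio, such as Nr2f2, Slc8a1, Rxra, Fabp3, Piezo1 and Dbp, also lie outside it. Their choice followed no stated naming rule. The members, the 26 lists, the 12 classes of markers and the 14 motifs were chosen with earlier results of these data known. Motifs were searched in RefSeq promoters in place of the windows that had been planned, because window sequences were not used here. Alternatives covered the thresholds of the rule, the marker list, depth, fragment length, the gene interval and the scaling.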

Additional observations from a re-analysis of the deposited data

Results flagged for a closer look

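In the sunitinib plus Yoda1 library, which entered no comparison, the 10 cardiomyocyte markers took 0.134% of all fragments (782 of 581823, interval 0.125 to 0.144). This was above the 0.0683% of the vehicle library and the 0.0657% of the sunitinib library. Of its fragments 42.1% shared their start and end with a fragment of another barcode, against 5.66% in the vehicle and 6.82% in the sunitinib library. With each position counted once the markers took 0.134% (0.123 to 0.145), against 0.0688% and 0.0665% in the other libraries. The part of this sharing, of the small number of unique fragments and of the other pipeline version in the value was not tested.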

How the results depend on the processing

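No paired analysis was possible because each group holds 1 library. Among named genes, 83 of 770 values under an alternative had the opposite sign to the reported one, and among other results with a direction 47 of 359. Where the reported interval excluded 0 there were 2 and 2 such values: Cacnb2 stood at 1.20 within 1 kb of start sites and Nrap at 0.0167 with at least 3000 fragments, and the lists are given below. The cause of each change was not tested, except that fewer nuclei or fragments leave fewer genes measured. The atrial list was lower in every alternative run, from -0.46 to -0.82 (the latter with fragments shorter than a nucleosome), and Flnc from -0.80 to -1.33.

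With at least 3000 fragments the sunitinib share was 6.31%, 4 genes were lower past 1.5-fold, the marker sum stood at 0.12, Z-disc genes at -0.081 and enriched windows at -0.18. With 10 marker fragments and 5 times the share, the shares were 4.23% and 3.58%, 2 genes were lower, and the marker sum stood at 0.11. Under that rule thick filament genes stood at 0.040, thin filament at 0.14, Z-disc at -0.047, channels at -0.14, PGC-1 at -0.10, adrenergic at -0.0048 and enriched windows at -0.087. Calcium cycling (0.0019) and T lymphoid markers (-0.054) reversed there. With each library as its own reference 2 genes were higher. Without Ryr2 and Ttn the shares were 3.41% and 3.06%, 5 genes were lower and autophagy stood at 0.10. Without the deepest 5% of nuclei 5 genes were lower and 2 higher, and enriched windows stood at -0.17.

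Thinned nuclei gave 0 genes lower and 0 higher of 44 measured. Thick filament genes then stood at -0.13, Z-disc at -0.27, glycolysis at 0.15, conduction at -0.34, cell cycle at 0.25, fibroblast markers at 0.71, epicardial at -0.28 and enriched windows at -0.16, and 0% of enriched promoters held the MEF2 motif. Fragments shorter than a nucleosome gave 0 lower and 0 higher of 53, with thin filament at -0.19, calcium cycling at -0.19, channels at -0.094, fatty acid oxidation at -0.25, growth factor at -0.0026, fibroblast markers at 0.61 and enriched windows at -0.31. Without nuclei that met another class rule 7 genes were lower and 5 higher. Within 1 kb of start sites 0 were lower and 0 higher of 1 measured. With a minimum of 100 fragments 71 were lower and 60 higher, and scaled to the median gene 6 and 7. Chosen after the data were seen, myeloid markers without Cx3cr1 stood at 0.12, PGC-1 without Ppargc1a at -0.10 and calcium cycling without markers at -0.18.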
